A study of Homo sapiens with 9 samples.

Results

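RNA from K562 cells, a human erythroleukaemia line, was sequenced after siRNA against UPF1 or against DHX34, and the 2 knockdowns were compared directly. The comparison rests on 6 of the 9 libraries of the series: 3 labelled UPF1 knockdown and 3 labelled DHX34 knockdown, all harvested on day 4. The other 3 libraries, from cells given a non-targeting siRNA pool (SCR), took no part in the test and are given beside it as background. By the study's methods, DHX34 was depleted with a pool of siRNAs and UPF1 with separately designed siRNAs, so the reagents differ between the groups as well as the target. Replicates were described there as biological.

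UPF1 is the RNA helicase at the core of nonsense-mediated decay (NMD), the pathway that removes transcripts on which ribosomes stop upstream of an exon junction, and it is phosphorylated by the kinase SMG1 before SMG5 and SMG6 start decay. DHX34 is a DEAH-box helicase that binds UPF1 and SMG1 and is also found with the spliceosome. Many NMD factors, the noncoding hosts of snoRNAs and stress genes such as ATF4 carry stop codons that make their own RNAs substrates of NMD. In K562 cells, which make embryonic and fetal globins, the same libraries also hold erythroid, megakaryocytic and myeloid RNAs.

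The 9 libraries held between 73478797 and 103625443 expected counts, the counts that salmon assigns to transcripts. Of the erythroid markers, HBG2 ran from 7222 to 12196 TPM and GATA1 from 184 to 225 TPM over the 6 libraries, while CD8A and MS4A1 were at 0 and CD3E and CD14 stayed at or under 0.21 TPM. KRT8 (247 to 337 TPM), EPCAM (68.1 to 80.4 TPM) and LYZ (11.8 to 32.8 TPM), which mark other cells in tissue, were well above 0 in both knockdowns. RNA from genes overlapping ribosomal RNA took 0.569%, 0.439% and 0.286% of the counts of the DHX34 knockdown libraries, 0.218%, 0.229% and 0.235% in UPF1 knockdown and 0.331%, 0.242% and 0.264% in SCR. Replicate 3 of the DHX34 knockdown stood farthest from its group, with an SD of 0.093 over genes in its log2 deviations against 0.05 to 0.075 in the other 5 libraries.

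Each siRNA lowered its own target and left the other target near SCR. UPF1 (chr19:18831959-18868230, plus strand, GENCODE 44 on GRCh38) measured 255, 268 and 255 CPM in DHX34 knockdown, 105, 107 and 104 in UPF1 knockdown and 252, 266 and 267 in SCR. Here CPM is the expected count relative to the TMM-scaled size of the library, and the groups did not overlap (log2 fold change -1.29, SE 0.033, edgeR adjusted p = 1.97e-09). DHX34 (chr19:47349315-47382704, plus strand) measured 30, 30 and 34 CPM in DHX34 knockdown, 76.5, 74.5 and 73.4 in UPF1 knockdown and 72.5, 74 and 74.7 in SCR. The 3 DHX34 knockdown libraries lay below all other libraries (log2 fold change 1.27, SE 0.051, edgeR adjusted p = 3.45e-08), so target RNA remained in both knockdowns.

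Of 17435 genes tested, 3026 (17.4%) were called different at an adjusted p of at most 0.005. In UPF1 knockdown 1724 of these (9.89% of genes tested) were higher and 1302 (7.47%) were lower than in DHX34 knockdown. The counts of called genes in each gene group below are to be read against these shares. Most differences were small: 230 of the higher genes and 185 of the lower ones passed 2-fold, and the median log2 fold change over all genes tested was 0.01. Between the groups 7996 genes (45.9%) did not overlap, called or not, which is the level to read single non-overlaps against. The calls fell to 1959, 1915 and 1970 without UPF1 knockdown replicate 1, 2 and 3 in turn. They fell to 2149 and 2208 without DHX34 knockdown replicate 1 and 2, and rose to 3865 (1948 higher, 1917 lower) without its replicate 3. Group counts without that library are to be read against this rise. Limma on TPM values called 997 higher and 427 lower.

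Among genes higher in UPF1 knockdown, the SCR mean lay nearer the DHX34 knockdown mean for 1308 of 1724 (75.9%). Genes lower in UPF1 knockdown split almost evenly, with SCR nearer DHX34 knockdown for 622 (47.8%) and nearer UPF1 knockdown for 680 (52.2%). The SCR mean lay between those of the knockdowns for 1047 of the higher genes (60.7%) and 849 of the lower ones (65.2%).

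**Figure D1:**
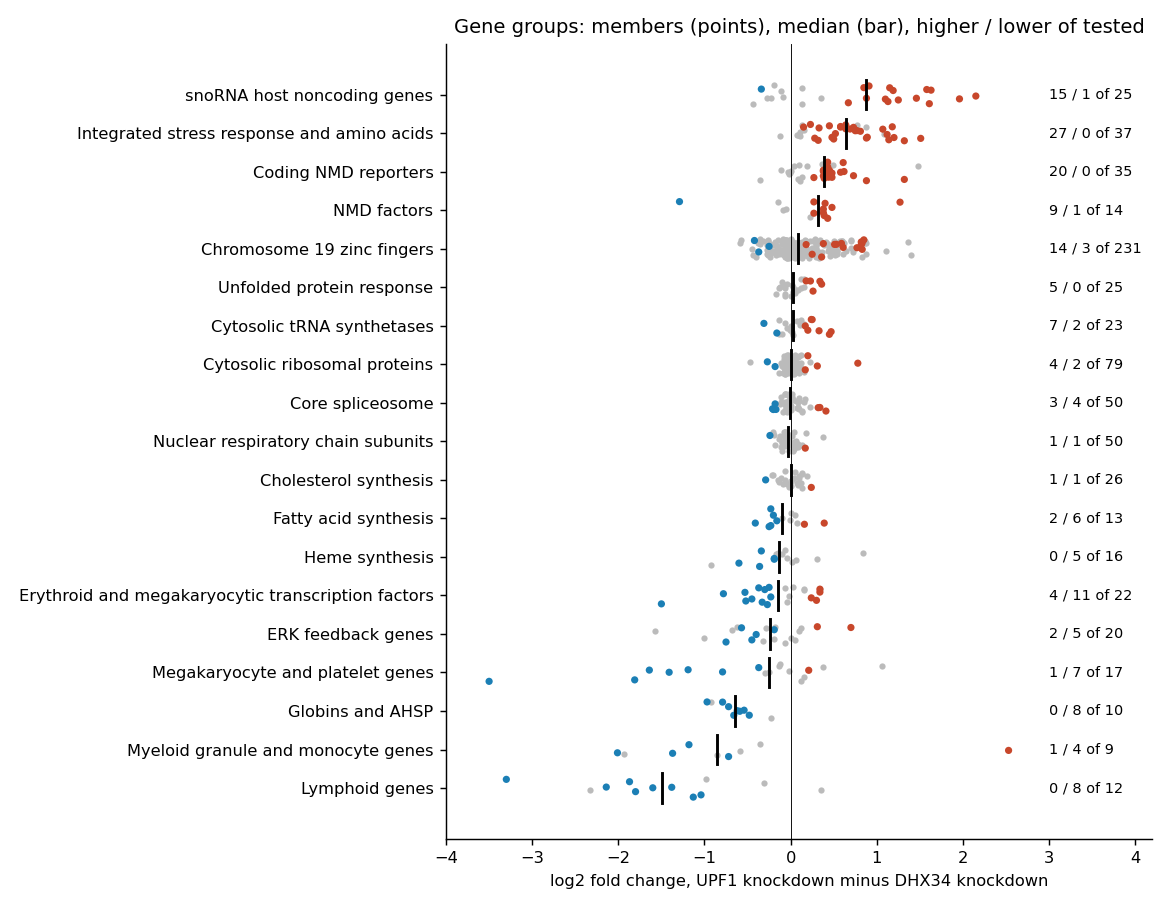
Each point is a tested gene of the group named on the left, placed by its log2 fold change between UPF1 and DHX34 knockdown (right of 0 is higher in UPF1 knockdown); red and blue points were called and grey ones were not, bars mark medians, and the numbers give genes higher and lower of those tested. The snoRNA hosts (median 0.88) and stress genes (0.64) lie to the right, the lymphoid (-1.49), myeloid (-0.86) and globin (-0.64) groups to the left, and ribosomal proteins and the core spliceosome sit at 0.

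NMD factors other than UPF1 were mostly higher in UPF1 knockdown. Of 14 tested, 9 were higher and 1, UPF1 itself, was lower, with a median log2 fold change of 0.32. Since the targets of both siRNAs are among them, 8 of the higher factors are neither target, among them SMG5, SMG1, SMG9, UPF2, SMG6, NBAS and UPF3B. SMG5, which recruits decay enzymes to phosphorylated UPF1, measured 159, 157 and 174 CPM in DHX34 knockdown, 223, 229 and 228 in UPF1 knockdown and 154, 164 and 158 in SCR. All 3 UPF1 knockdown libraries were above the other 6 (log2 fold change 0.48, SE 0.04, edgeR adjusted p = 5.98e-06).

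The kinase SMG1 measured 112, 112 and 134 CPM in DHX34 knockdown, 171, 151 and 159 in UPF1 knockdown and 102, 108 and 100.1 in SCR. All DHX34 knockdown libraries were above SCR, replicate 3 most, and all were below UPF1 knockdown (log2 fold change 0.43, SE 0.068, edgeR adjusted p = 0.000677). Copies of part of SMG1 elsewhere on chromosome 16 may share its reads. UPF2, which bridges UPF1 to the exon junction, gave 45.4, 49.4 and 52.5 CPM in DHX34 knockdown, 63, 62.8 and 65.4 in UPF1 knockdown and 42, 46.2 and 45.7 in SCR (log2 fold change 0.39, SE 0.051, edgeR adjusted p = 0.000181). For SMG6, the endonuclease of the pathway, the values were 27.5, 27.1 and 30.6 CPM in DHX34 knockdown, 36.1, 36.8 and 37 in UPF1 knockdown and 27.9, 26.7 and 27.4 in SCR (log2 fold change 0.38, SE 0.051, edgeR adjusted p = 0.000222).

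SMG9, a regulator of SMG1, had a log2 fold change of 0.40 (edgeR adjusted p = 1.6e-05). Of NBAS, which acts in NMD at the endoplasmic reticulum, the value was 0.27 (adjusted p = 6.77e-05). UPF3B, an adaptor to the exon junction complex, was at 0.27 (adjusted p = 0.00402), a call kept in 1 of the 6 fits that left out 1 library and lost with length-scaled counts, limma, length and GC offsets and library totals. UPF3A at 0.22 (adjusted p = 0.014), SMG8 at -0.15, GNL2 at -0.09 and SEC13 at -0.05 did not pass the threshold. Against SCR the median log2 fold change of the factors in DHX34 knockdown was 0.01 and in UPF1 knockdown 0.23, values that share the SCR libraries.

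Noncoding snoRNA host genes were mostly higher in UPF1 knockdown. Their spliced RNAs have short reading frames, and the snoRNAs lie in their introns. Of 25 tested, 15 were higher and 1 lower in UPF1 knockdown, with a median of 0.88. GAS5 (chr1:173858559-173868882, minus strand) measured 209, 205 and 203 CPM in DHX34 knockdown, 789.8, 754 and 838 in UPF1 knockdown and 297, 293 and 289 in SCR. UPF1 knockdown was above SCR and DHX34 knockdown below it, with no overlap (log2 fold change 1.96, SE 0.041, edgeR adjusted p = 1.94e-09).

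SNHG7 measured 18.1, 17.4 and 25.7 CPM in DHX34 knockdown, 92.4, 89.9 and 86.9 in UPF1 knockdown and 22, 23.6 and 19.7 in SCR. Its DHX34 knockdown replicate 3 lay above the SCR libraries, but all UPF1 knockdown libraries were far higher (log2 fold change 2.15, SE 0.115, edgeR adjusted p = 2.69e-07). SNHG1, host of a cluster of box C/D snoRNAs, measured 128, 125 and 152 CPM in DHX34 knockdown, 394, 392 and 419 in UPF1 knockdown and 161, 144 and 142 in SCR, and here DHX34 knockdown overlapped SCR (log2 fold change 1.58, SE 0.066, edgeR adjusted p = 4.45e-08). ZFAS1, host of SNORD12 family members, stood at 96.2, 93.7 and 88 CPM in DHX34 knockdown, 225, 215 and 216 in UPF1 knockdown and 142, 131 and 137 in SCR. As with GAS5, SCR lay between the knockdowns (log2 fold change 1.25, SE 0.039, edgeR adjusted p = 7.56e-09). SNHG29, the most abundant host by CPM, gave 616, 638 and 559.5 CPM in DHX34 knockdown, 1096, 1103 and 1114 in UPF1 knockdown and 870.3, 803 and 849 in SCR (log2 fold change 0.88, SE 0.045, edgeR adjusted p = 1.96e-07).

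The remaining higher hosts ranged from SNHG12 (0.67, called in 2 of the 6 fits without 1 library) to EPB41L4A-AS1 (1.63), with SNHG17 at 1.61, SNHG32 at 1.46, SNHG15 at 1.19, SNHG6 at 1.15, SNHG5 at 1.13, SNHG8 at 1.10, SNHG11 at 0.91 and SNHG20 at 0.85 on the log2 scale. Hosts were not uniform. SNHG30 was lower in UPF1 knockdown (log2 fold change -0.34, SE 0.057, edgeR adjusted p = 0.00103), a call lost with length-scaled counts and with limma, and SNHG19 (-0.44), SNHG14 (-0.28), SNHG9 (-0.23), SNHG10 (-0.19), SNHG3 (-0.11), DANCR (-0.09), SNHG16 (0.13), SNHG4 (0.13) and SNHG25 (0.35) were not called. Whether reads were counted by strand was not stated, so a host that overlaps a gene on the other strand, as EPB41L4A-AS1 may, cannot be told from its partner.

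**Figure D2:**
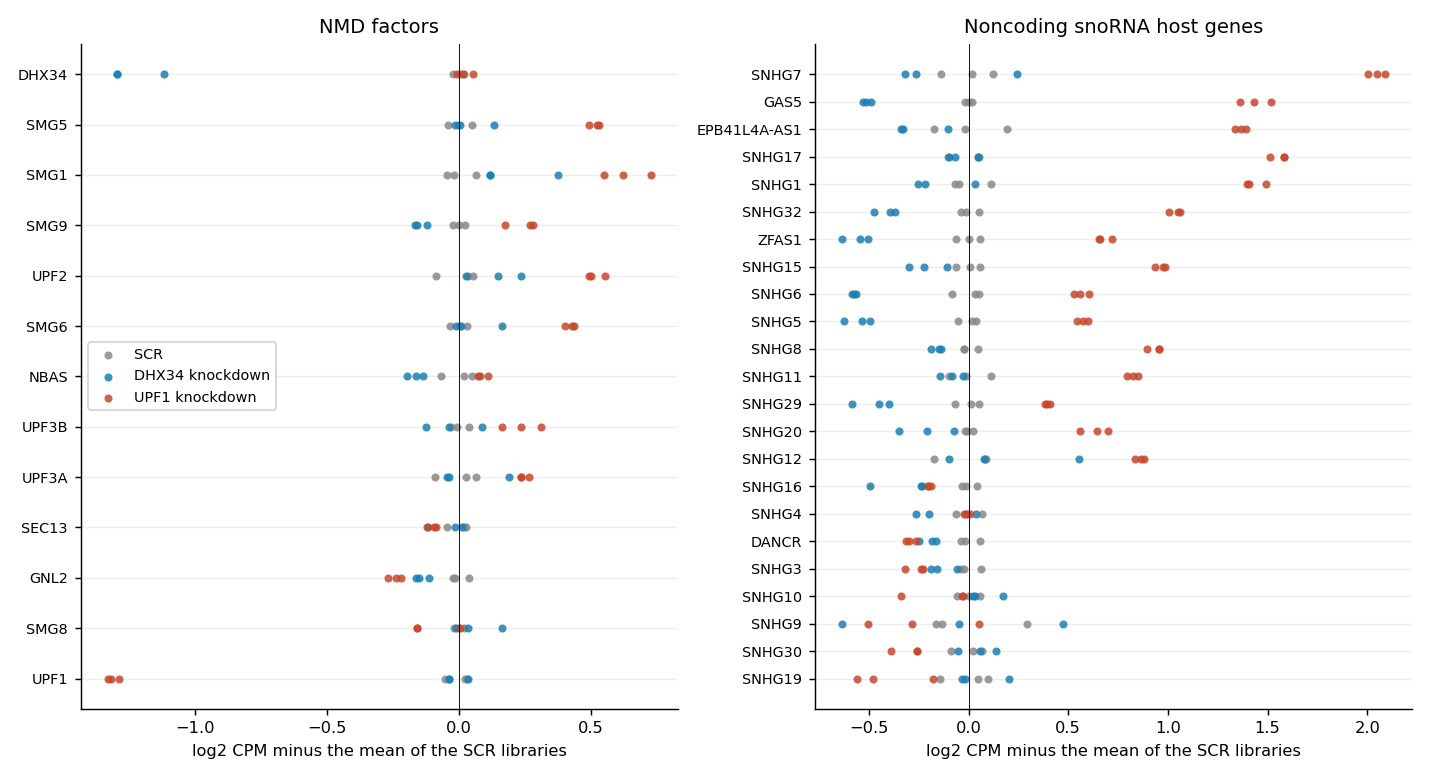
Each point is a library, placed by its log2 CPM minus the mean of the 3 SCR libraries, for 13 NMD factors (left) and for snoRNA host genes reaching 1 CPM on average in DHX34 knockdown (right). DHX34 and UPF1 each fell in the cells given their own siRNA, 8 of the other NMD factors shown are highest in UPF1 knockdown, and for GAS5, ZFAS1, SNHG5 and SNHG6 the knockdowns fall on opposite sides of SCR.

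Coding genes used as reporters of NMD moved the same way. Of 35 tested, 20 were higher and 0 lower by edgeR (2 lower at an unadjusted p under 0.05), with a median of 0.39. Some of them are NMD factors or stress genes already counted in those groups. GABARAPL1, an autophagy protein of the ATG8 family, measured 14.4, 16.1 and 14.6 CPM in DHX34 knockdown, 22.7, 22.6 and 23.2 in UPF1 knockdown and 13.2, 11.7 and 11.7 in SCR (log2 fold change 0.61, SE 0.058, edgeR adjusted p = 1.69e-05). NFKBIB, an inhibitor of NF-kappaB, measured 47.3, 47.4 and 46.2 CPM in DHX34 knockdown, 70.4, 72.9 and 71.6 in UPF1 knockdown and 43.9, 44.7 and 41.6 in SCR (log2 fold change 0.62, SE 0.034, edgeR adjusted p = 3.1e-07). The reporters GADD45A at 0.38, TBL2 at 0.48, ARHGEF18 at 0.43 and RSRC2 at 0.41 were called too, while CDKN1A at -0.03, SRSF2 at -0.11, SRSF3 at 0.00, SRSF6 at -0.01 and HNRNPDL at 0.04 were not.

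Transcripts that GENCODE annotates as NMD substrates leaned to UPF1 knockdown. Of 64325 transcripts tested, 471 (0.732%) were higher and 206 (0.32%) lower in UPF1 knockdown. Among 6289 NMD-annotated transcripts 118 were higher (1.88%) and 3 lower (0.0477%), and their median log2 fold change was 0.49 against 0.02 for all transcripts. The calls among protein-coding transcripts were balanced, with 192 higher and 189 lower of 35235 and a median of -0.03. At an unadjusted edgeR p under 0.05, 3154 of them were higher and 4287 lower, beside 6787 and 5169 of all transcripts. Retained-intron transcripts, 10754 in all, had 19 higher and 4 lower. Without 1 library these calls dropped to between 57 and 345 transcripts, the lowest without UPF1 knockdown replicate 1 or 3, with 103 without DHX34 knockdown replicate 1, 130 without replicate 2, 345 without replicate 3 and 61 without UPF1 knockdown replicate 2.

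Within genes the same contrast held. In 3556 genes with both kinds tested, the NMD-annotated transcripts exceeded the coding ones by a median of 0.45 in log2 fold change, and in 2700 (75.9%) the difference was above 0. In transcripts annotated as coding, such a stop position went with a smaller shift: 189 coding transcripts whose stop lay 50 or more bases before the last exon junction had a median of 0.30, with 1 called, against -0.03 for 30037 with other stops. These sets were not matched for gene or level. NMD-annotated RNA made up 2.31%, 2.32% and 2.38% of TPM in DHX34 knockdown, 3.07%, 3.1% and 3.06% in UPF1 knockdown and 2.27%, 2.3% and 2.24% in SCR. The 2 knockdowns did not overlap, and the difference of 0.738 percentage points had an exact two-sided permutation p of 0.1, the smallest that 3 against 3 allows. For lncRNA transcripts the shares were 2.71%, 2.56% and 2.39% in DHX34 knockdown and 3.19%, 3.15% and 3.2% in UPF1 knockdown, with 2.44%, 2.31% and 2.28% in SCR (exact permutation p = 0.1).

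**Figure D3:**
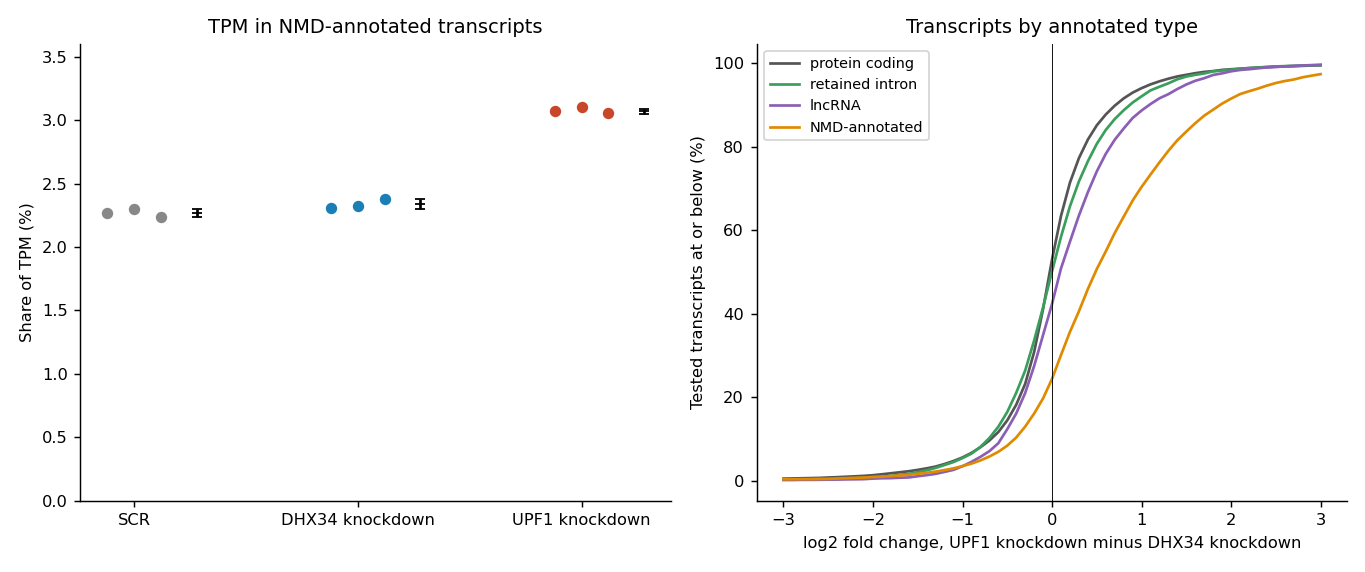
Left, the share of TPM in NMD-annotated transcripts for each library (points) with the mean and SD of 3 libraries (bars); right, the cumulative share of tested transcripts by log2 fold change between the knockdowns, for 4 annotated types. UPF1 knockdown libraries lie at 3.06% to 3.1% and the other 6 between 2.24% and 2.38%, and the NMD-annotated curve is shifted to the right of the other 3.

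The end of the reading frame of 5 NMD-annotated transcripts higher in UPF1 knockdown is shown to make plain where translation stops; each line gives the last coding bases in lower case with the stop codon in capitals, from GENCODE 44.
RBM39-206: tttgattccagtgtgaactgtcaatcaTAA
HNRNPDL-202: aatcaccaaaacaattaccagccatacTAA
PFDN5-201: gaggatgtatgtccctgggaagctgcaTGA
EIPR1-204: cagcgtccctggaagggaagggacaacTGA
SNRPB-203: tggcctcattgcctatttgtaaagctgTAG

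In RBM39-206 the stop codon (chr20:35740526-35740528 on GRCh38) lies 1442 bases of spliced RNA before the last exon junction, and 15 junctions follow it. RBM39 is a splicing factor that uses such an exon to limit its own level. The transcript measured 0, 0 and 0 TPM in DHX34 knockdown, 15.1, 14.5 and 15.7 in UPF1 knockdown and 0, 0 and 0 in SCR. It was listed at 0 in all 6 libraries without UPF1 siRNA, and no fold is given. HNRNPDL-202, of an RNA-binding protein, stops at chr4:82426059-82426061, 127 bases before the last junction. Its values were 0, 0 and 0 TPM in DHX34 knockdown, 18.5, 16.1 and 15.9 in UPF1 knockdown and 0, 0 and 0 in SCR.

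HNRNPH1-215 (listed at 0 in DHX34 knockdown and at 18.8, 17.2 and 28.2 TPM in UPF1 knockdown) and MYL4-205 (listed at 0, and at 5.11, 4.16 and 4.03 TPM) were not at 0 in all SCR libraries, where HNRNPH1-215 read 6.89, 9.91 and 0 TPM. A listed 0 of an isoform can come from how salmon divides reads between isoforms. Others had reads in every library. SNRPB-203, an isoform of a core snRNP protein gene with its stop at chr20:2467258-2467260 and 596 bases before the last junction, measured 2.12, 1.63 and 1.54 TPM in DHX34 knockdown, 15.5, 13.2 and 14.2 in UPF1 knockdown and 1.65, 1.57 and 1.68 in SCR (log2 fold change 2.96, SE 0.184, edgeR adjusted p = 0.000825). The co-chaperone isoform DNAJC7-205 gave 1.62, 1.16 and 1.66 TPM in DHX34 knockdown, 13.3, 13.1 and 11.1 in UPF1 knockdown and 1.31, 1.16 and 1.43 in SCR (log2 fold change 3.02, SE 0.21, edgeR adjusted p = 0.00125).

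PFDN5-201, of a prefoldin subunit, has its stop at chr12:53297873-53297875, 155 bases before the last junction, and measured 0.5, 0.949 and 0.922 TPM in DHX34 knockdown, 8.42, 8.44 and 8.67 in UPF1 knockdown and 1.38, 2.07 and 1.6 in SCR (log2 fold change 3.41, SE 0.301, edgeR adjusted p = 0.00284). EIPR1-204, whose stop at chr2:3196978-3196980 lies 97 bases before that junction, read 0.752, 0.63 and 0.767 TPM in DHX34 knockdown, 6.56, 6.75 and 7.13 in UPF1 knockdown and 0.667, 1.43 and 1.34 in SCR (log2 fold change 3.19, SE 0.218, edgeR adjusted p = 0.00118). In each of these the 3 UPF1 knockdown libraries were above all 6 others. Leaving out 1 library in turn kept the call of RBM39-206 in 6 of 6 fits, of HNRNPDL-202 in 3 and of SNRPB-203 in 2. HNRNPH1-215, MYL4-205, DNAJC7-205, PFDN5-201, EIPR1-204, GYPE-203 and NCKAP1L-204 were called in 0 of them, so these calls rest on all 6 libraries. GYPE-203, of the glycophorin family whose members share reads, had a log2 fold change of 2.94. By the rule for naming, 1 transcript of lower level in UPF1 knockdown remained: NCKAP1L-204, of a haematopoietic actin regulator, with 4.59, 5.16 and 4.6 TPM in DHX34 knockdown, 2.14, 1.77 and 1.82 in UPF1 knockdown and 1.46, 1.82 and 2.19 in SCR (log2 fold change -1.39, SE 0.112, edgeR adjusted p = 0.00211).

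Transcript shares within genes changed in 234 of 7252 genes (3.23%; limma on shares, Simes p-values, adjusted p of at most 0.05). Leaving out any 1 library brought the number to between 39 (without DHX34 knockdown replicate 1) and 93 (without DHX34 knockdown replicate 3), with 64 without DHX34 knockdown replicate 2 and 40, 43 and 41 without UPF1 knockdown replicate 1, 2 and 3. Of the 234 genes, 113 (48.3%) were also called by their total level. Within them 294 transcripts changed share. NMD-annotated transcripts gained: 70 of 72 took a larger share in UPF1 knockdown. Protein-coding ones mostly lost, with 49 of 144 larger and 95 smaller. Over all shares tested, 71% of 2094 NMD-annotated and 45% of 16629 coding transcripts were larger in UPF1 knockdown.

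TRA2B, an SR-like splicing regulator, holds an NMD-annotated isoform, TRA2B-205, with 21.5, 20.5 and 21.9% in DHX34 knockdown, 46.1, 48.5 and 45.1% in UPF1 knockdown and 21.4, 22.9 and 19% in SCR of the gene's TPM. UPF1 knockdown stood 25.3 percentage points above DHX34 knockdown, which lay with SCR (limma adjusted p = 0.0061). CDKN2AIP-201, of a p53 pathway regulator, took 42.4, 44.8 and 43.2% in DHX34 knockdown, 80.1, 76.6 and 77.9% in UPF1 knockdown and 43.3, 45.1 and 45.4% in SCR (limma adjusted p = 0.0014). In H3-3B, a histone H3.3 gene, the coding transcript H3-3B-206 took 40.1, 37.9 and 39.1% in DHX34 knockdown, 17.2, 11 and 17.4% in UPF1 knockdown and 34.2, 18.1 and 38.6% in SCR, so that 1 SCR library lay near the UPF1 knockdown ones (limma adjusted p = 0.00742). PIGT-202, of a subunit of the GPI transamidase, took 63.1, 67.4 and 63.3% in DHX34 knockdown, 41.1, 40.8 and 40.4% in UPF1 knockdown and 61.3, 63.2 and 62.6% in SCR, lower in UPF1 knockdown (limma adjusted p = 0.00638).

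Among the hosts, SNHG8-201 took 15.3, 16.2 and 18.2% in DHX34 knockdown, 44.8, 44.7 and 44.2% in UPF1 knockdown and 11.6, 13.9 and 13.6% in SCR (limma adjusted p = 0.00355), and SNHG7-202 60.8, 69.5 and 64.4% in DHX34 knockdown, 95.3, 94.4 and 95.2% in UPF1 knockdown and 73.1, 70.5 and 66.1% in SCR (limma adjusted p = 0.00638). For both, the isoform gained in a gene whose total was also higher. The next 3 shares were unsteady within SCR. CUX1-202 took 2.5, 31.6 and 0% in DHX34 knockdown, 56.4, 46.7 and 50% in UPF1 knockdown and 0, 43.8 and 31.3% in SCR, so its DHX34 knockdown libraries ranged widely. STX8-204 was listed at 0% in DHX34 knockdown and at 34.2, 37.6 and 37.1% in UPF1 knockdown, with 0, 0 and 34.4% in SCR, and ZNF143-215 went the other way with 22.5, 25.8 and 28.4% against 0% and 0, 0 and 23.6% in SCR. PINX1-203 took 36.9, 31.2 and 38.1% in DHX34 knockdown, 62.4, 61.3 and 59.2% in UPF1 knockdown and 38.5, 30.9 and 29.7% in SCR (limma adjusted p = 0.0152).

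**Figure D4:**
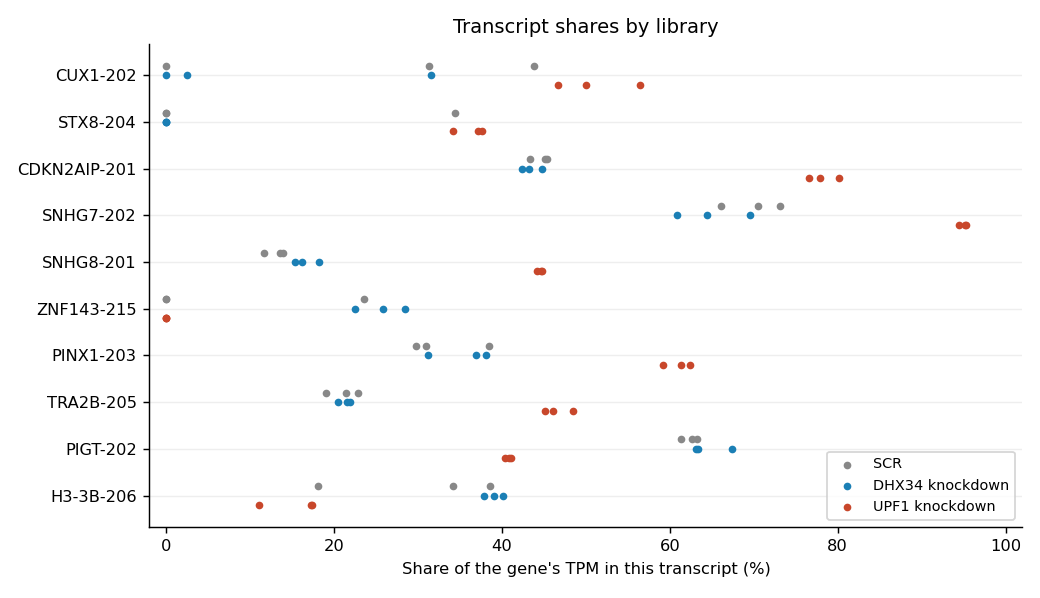
The share of a gene's TPM in 1 transcript, in percent, for each library of the 10 genes with the largest difference between the knockdowns. TRA2B-205, CDKN2AIP-201, PIGT-202 and the 2 snoRNA host isoforms form tight groups in which DHX34 knockdown lies at or near SCR, while CUX1-202, STX8-204 and ZNF143-215 jump between 0% and higher values inside the SCR group.

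Genes of the integrated stress response and of amino acid supply were largely higher in UPF1 knockdown. When translation initiation factor eIF2 is phosphorylated, ATF4 protein is made and drives genes for amino acid synthesis and uptake, and ATF4 RNA is itself an NMD substrate. Of 37 tested, 27 were higher and 0 lower in UPF1 knockdown by edgeR (1 lower at an unadjusted p under 0.05), with a median of 0.64. ATF4 (chr22:39519695-39522683, plus strand) measured 315, 319.6 and 304 CPM in DHX34 knockdown, 567, 575 and 571 in UPF1 knockdown and 385, 363 and 370.2 in SCR. SCR lay between the 2 knockdowns without overlap (log2 fold change 0.88, SE 0.031, edgeR adjusted p = 1.68e-08).

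DDIT4, an inhibitor of mTORC1, measured 191, 187 and 152 CPM in DHX34 knockdown, 487, 492 and 521 in UPF1 knockdown and 278, 268 and 275 in SCR (log2 fold change 1.51, SE 0.074, edgeR adjusted p = 1.3e-07). ATF3, a partner of ATF4, measured 14, 13.9 and 13.5 CPM in DHX34 knockdown, 34.2, 34.7 and 33.6 in UPF1 knockdown and 17.7, 15.7 and 16.4 in SCR (log2 fold change 1.32, SE 0.046, edgeR adjusted p = 1.68e-08). For PHGDH, the first enzyme of serine synthesis, the libraries read 47.9, 47.6 and 45.5 CPM in DHX34 knockdown, 99, 106 and 103 in UPF1 knockdown and 65.3, 63.9 and 69.6 in SCR (log2 fold change 1.14, SE 0.039, edgeR adjusted p = 1.25e-08). In these 3 genes DHX34 knockdown lay below every SCR library and UPF1 knockdown above. ATF5, a related factor, read 81.5, 79.2 and 84.8 CPM in DHX34 knockdown, 176, 185 and 168 in UPF1 knockdown and 86.4, 86.8 and 89.9 in SCR (log2 fold change 1.12, SE 0.041, edgeR adjusted p = 1.93e-08), and there DHX34 knockdown lay just below SCR.

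ASNS, asparagine synthetase, behaved differently relative to SCR: 285, 279 and 254 CPM in DHX34 knockdown, 399, 408 and 410.1 in UPF1 knockdown and 387, 369.9 and 387 in SCR. DHX34 knockdown lay well below SCR, and UPF1 knockdown just above it (log2 fold change 0.58, SE 0.043, edgeR adjusted p = 2.48e-06). Other enzymes called higher were GPT2 (1.20), PSAT1 (0.64), PSPH (0.58), CTH (0.64), SHMT2 (0.33), MTHFD2 (0.28) and ALDH1L2 (0.89). Amino acid transporters followed, with SLC1A4 at 0.81, SLC6A9 at 0.77, SLC7A5 at 0.69, SLC3A2 at 0.52, SLC7A11 at 0.48 and SLC7A1 at 0.32. CHAC1, which degrades glutathione, stood at 1.07, the pseudokinase TRIB3 at 0.50, and the leucine sensor SESN2 at 0.75. SLC38A2 (0.11), SLC1A5 (0.11), CEBPB (0.07) and ALDH18A1 (-0.12) were not called.

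ATF4 binds C/EBP-ATF elements, and TGATGNAA was searched on both strands (TTNCATCA on the other) in RefSeq promoters of GRCh38.p14, 250 bases before to 50 after the gene start. It was present in 3.67% of all 27305 promoters and in 1.71% of the 11630 belonging to tested genes. Of the stress response genes higher in UPF1 knockdown, 21 had a promoter in the table and 5 of them (23.8%) held a match, as did 1 of 9 not called (GOT1). A match is a description of letters and not of binding. The list was made of genes of the response in which ATF4 acts, so its share of matches says nothing of the knockdowns. The counts of 5 of 21 and 1 of 9 are too small to compare. Windows around 4 of these are shown, in the gene's direction, with the match in capitals.
ATF3: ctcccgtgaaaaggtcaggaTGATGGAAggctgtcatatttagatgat
ASNS: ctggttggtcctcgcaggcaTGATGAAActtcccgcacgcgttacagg
CHAC1: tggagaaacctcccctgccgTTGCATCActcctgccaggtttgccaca
SLC7A1: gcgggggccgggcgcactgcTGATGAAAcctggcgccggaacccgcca

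The windows lie at chr1:212565196-212565243 (ATF3, plus strand), chr7:97872449-97872496 (ASNS, minus strand), chr15:40953242-40953289 (CHAC1, plus strand) and chr13:29595654-29595701 (SLC7A1, minus strand). Counted from the gene start, the match begins at -191 in ATF3, -68 in ASNS, -209 in CHAC1 and 7 in SLC7A1. In CHAC1 it is on the other strand.

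Neighbouring stress groups moved less. Of 23 cytosolic tRNA synthetases 7 were higher, led by WARS1 (0.47) and CARS1 (0.45), and 2 lower, VARS1 (-0.31) among them, around a median of 0.03. In the unfolded protein response, 5 of 25 were higher and 0 lower by edgeR (5 lower at an unadjusted p under 0.05, and 3 called lower without DHX34 knockdown replicate 3), with ERN1 (0.36) and EDEM1 (0.34) first and a median of 0.03. Length-scaled counts and limma each called 1 of the 25 higher and 0 lower, EDEM1 in neither. Of p53 targets 5 of 23 were higher and 2 lower. In the BCL2 family 4 of 15 were higher and 2 lower, with a median of 0.08. PMAIP1 (0.70) and BBC3 (0.40), BH3-only proteins that promote apoptosis, were higher, as was the effector BAK1 (0.38). The survival factors were split, with BCL2 (0.59) higher and MCL1 (-0.21) lower, and BOK (-0.63), an effector, was lower. BCL2 was called in 0 and BOK in 2 of the 6 fits without 1 library, and limma called 2 of the family higher and 0 lower.

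**Figure D5:**
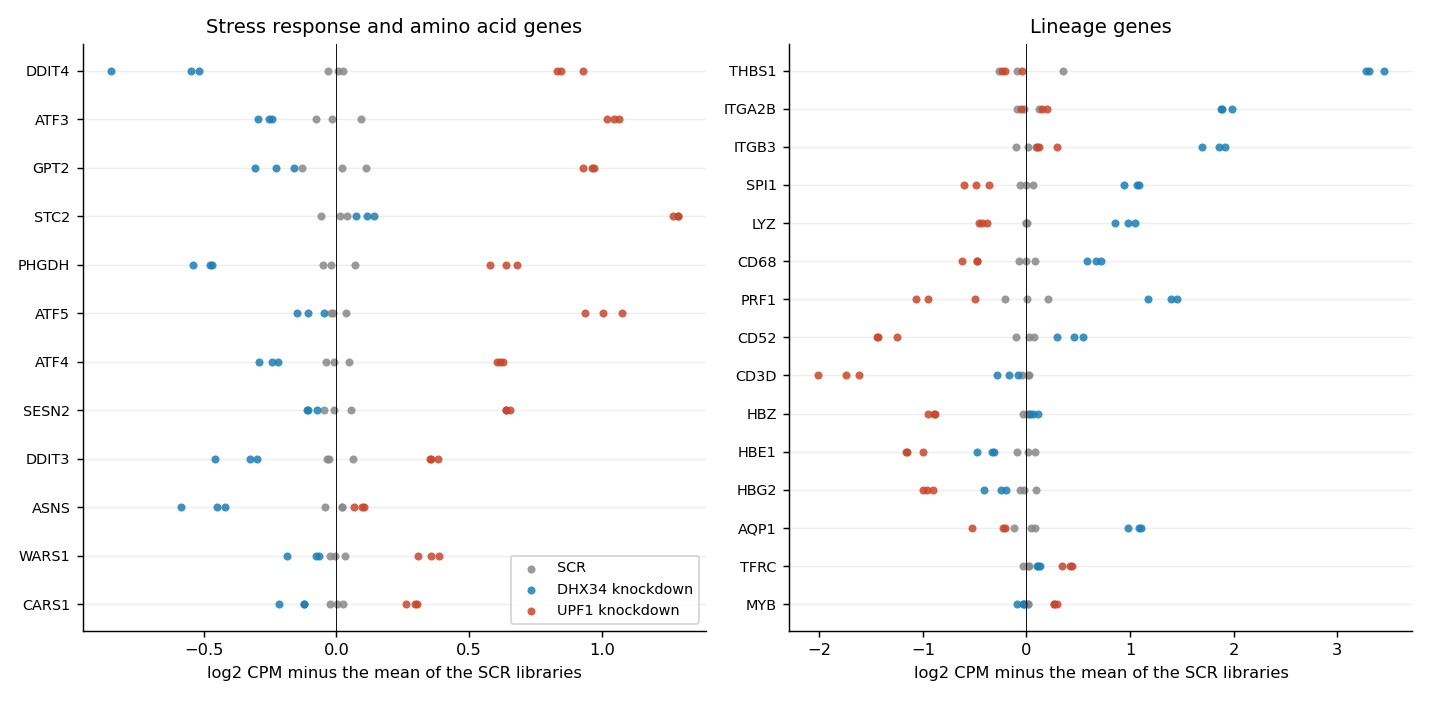
Points are libraries, placed by log2 CPM minus the mean of the SCR libraries, for stress and amino acid genes (left) and for lineage genes (right). On the left UPF1 knockdown lies right of SCR in all 12 genes and DHX34 knockdown lies left of it for most; on the right THBS1, ITGA2B and ITGB3 stand out in DHX34 knockdown with UPF1 knockdown at SCR, and CD3D, HBZ and HBE1 fall in UPF1 knockdown.

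RNA processing machinery separated the knockdowns little. Of 50 core spliceosome genes 3 were higher and 4 lower, with a median of -0.01. BUD31, a spliceosome component, measured 131, 133 and 117 CPM in DHX34 knockdown, 169, 162 and 169 in UPF1 knockdown and 163, 152 and 163 in SCR (log2 fold change 0.41, SE 0.047, edgeR adjusted p = 7.76e-05), and PRPF8, the core scaffold, 431, 436 and 448 CPM in DHX34 knockdown, 379, 384 and 389.8 in UPF1 knockdown and 369.9, 394 and 385 in SCR (log2 fold change -0.18, SE 0.031, edgeR adjusted p = 0.00112). PRPF8 was above SCR in DHX34 knockdown, and BUD31 was below it. Of 23 DEAH-box and spliceosomal helicases, which include DHX34, DHX33 (0.63) and DHX35 (0.30) were higher as well and DHX30 (-0.19) lower. With length-scaled counts and with limma, PRPF8, DHX35 and DHX30 were not called, while BUD31 and DHX33 were.

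Among 13 SR proteins and relatives TRA2B (0.44) and SRSF10 (0.31) were higher, and of 27 hnRNP and related genes 3 were higher, with PTBP2 (0.61) first, and 2 lower. Removing length and GC trends changed the SR count to 2 higher and 5 lower and that of hnRNPs to 1 and 6. CLK1 (0.40) and CLK4 (0.53), kinases of SR proteins, were higher. In the exon junction complex CASC3 (0.23) and RBM8A (0.26) were higher of 11. With length-scaled counts and with limma, 0 genes of the exon junction, general decay and CLK groups were called. General mRNA decay genes had 3 higher and 1 lower of 30, and 0 and 5 with length and GC trends removed.

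Globin RNA was lower in UPF1 knockdown. Of 10 globin genes and AHSP, the chaperone of alpha globin, 8 were lower and 0 higher by edgeR (0 higher at an unadjusted p under 0.05), with a median of -0.64. HBZ, the embryonic alpha-like chain, measured 1032, 996 and 978 CPM in DHX34 knockdown, 494, 517 and 516 in UPF1 knockdown and 974, 933 and 961 in SCR. DHX34 knockdown was just above the SCR libraries, and UPF1 knockdown was far below both (log2 fold change -0.97, SE 0.034, edgeR adjusted p = 1.69e-08). HBE1, embryonic epsilon globin, measured 1807, 1828 and 1634 CPM in DHX34 knockdown, 1017, 1023 and 1139 in UPF1 knockdown and 2399.8, 2136 and 2288 in SCR, where both knockdowns were below SCR and UPF1 knockdown was the lower (log2 fold change -0.72, SE 0.054, edgeR adjusted p = 3.31e-06). HBG2 (-0.66) and HBG1 (-0.54), like HBA2 (-0.59) and HBA1 (-0.48), are near-identical pairs, and the division of reads within a pair is uncertain. In bulk RNA, fewer cells expressing a gene and less RNA per cell cannot be told apart.

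Other red cell groups were mixed. In heme synthesis 5 of 16 were lower, among them ALAS2 (-0.60), the erythroid first enzyme. Length-scaled counts called 2 of the 16 lower and limma 1, ALAS2 in neither, while DESeq2 called 7 lower and 1 higher. Of 26 red cell membrane genes 7 were lower, with the water channel AQP1 (-1.36) and band 3, SLC4A1 (-0.98), first, and 5 higher, with GYPE (0.85) and ADD2 (0.39) first. For these, length-scaled counts called 4 lower and 2 higher, limma 2 and 3, and DESeq2 10 and 5. SLC4A1 was not called by limma. Iron handling had TFRC (0.30), the transferrin receptor, higher and SLC40A1 (-0.23) and TFR2 (-0.19) lower of 16.

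Of 22 transcription factors and receptors of these lineages, 11 were lower and 4 higher. SPI1 (PU.1), the driver of myeloid fate, measured 53.5, 52.5 and 48.2 CPM in DHX34 knockdown, 19.6, 17.9 and 16.5 in UPF1 knockdown and 26.2, 24.1 and 25.1 in SCR. Every DHX34 knockdown library was above SCR and every UPF1 knockdown library below it (log2 fold change -1.5, SE 0.065, edgeR adjusted p = 5.49e-08). ZFPM1, the partner of GATA1, measured 63.8, 67.1 and 64.8 CPM in DHX34 knockdown, 40.1, 37.2 and 35.7 in UPF1 knockdown and 51.5, 52.6 and 52.2 in SCR with the same order (log2 fold change -0.78, SE 0.047, edgeR adjusted p = 6.1e-07). GATA1 (-0.30), KLF1 (-0.33), NFE2 (-0.27), GFI1B (-0.25), LMO2 (-0.37) and the receptor EPOR (-0.45) were lower by smaller amounts, MYB (0.34) and RUNX1 (0.30) were higher, and GATA2 (0.03) and TAL1 (-0.02) were not called. Length-scaled counts called 9 of the 22 lower and 1 higher, limma called 7 and 1, and neither called RUNX1.

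Megakaryocyte and platelet genes differed mainly through DHX34 knockdown. Of 17 tested, 7 were lower and 1 higher in UPF1 knockdown. THBS1, a platelet granule matrix protein, measured 11.8, 12 and 13.3 CPM in DHX34 knockdown, 1.03, 1.18 and 1.05 in UPF1 knockdown and 1.01, 1.14 and 1.55 in SCR. UPF1 knockdown overlapped SCR, and DHX34 knockdown stood apart from both (log2 fold change -3.50, SE 0.101, edgeR adjusted p = 4.07e-09). ITGA2B, the platelet integrin chain, measured 14.3, 15.4 and 14.4 CPM in DHX34 knockdown, 4.46, 4.32 and 3.75 in UPF1 knockdown and 4.23, 3.66 and 3.83 in SCR (log2 fold change -1.81, SE 0.083, edgeR adjusted p = 8.9e-08). Its partner ITGB3 measured 1.65, 1.85 and 1.93 CPM in DHX34 knockdown, 0.552, 0.623 and 0.547 in UPF1 knockdown and 0.543, 0.513 and 0.474 in SCR at a low level, and UPF1 knockdown was just above SCR (log2 fold change -1.64, SE 0.187, edgeR adjusted p = 6.9e-05).

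PTGS1 (-1.41), PEAR1 (-1.19) and TUBB1 (-0.79) were also lower in UPF1 knockdown, and the defining platelet genes PF4, PPBP, GP9 and VWF were too low to be tested. In the myeloid group 4 of 9 were lower and 1 higher. LYZ, lysozyme, measured 33.9, 35.5 and 31.1 CPM in DHX34 knockdown, 12.5, 12.8 and 13.2 in UPF1 knockdown and 17.3, 17.2 and 17.1 in SCR (log2 fold change -1.37, SE 0.06, edgeR adjusted p = 5.57e-08). CD68, a lysosomal protein of macrophages, measured 46.3, 44.7 and 42.2 CPM in DHX34 knockdown, 20.2, 20.2 and 18.3 in UPF1 knockdown and 28, 26.8 and 29.7 in SCR (log2 fold change -1.18, SE 0.054, edgeR adjusted p = 8.88e-08). Both lay above SCR in DHX34 knockdown and below it in UPF1 knockdown.

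MS4A3, a marker of granulocyte-monocyte progenitors, went the other way, with 8.27, 7.77 and 6.72 CPM in DHX34 knockdown, 42.6, 44.8 and 43.6 in UPF1 knockdown and 17.1, 18 and 20.1 in SCR (log2 fold change 2.53, SE 0.07, edgeR adjusted p = 3.95e-09). MPO, ELANE and CSF1R were too low to be tested. Lymphoid genes were lower in UPF1 knockdown for 8 of 12 tested, with a median of -1.49 that rests on genes at low levels. CD52 measured 18.3, 17.3 and 15.4 CPM in DHX34 knockdown, 4.6, 4.63 and 5.26 in UPF1 knockdown and 13.2, 11.7 and 12.8 in SCR (log2 fold change -1.80, SE 0.088, edgeR adjusted p = 1.28e-07). CD3D, a T cell receptor chain, measured 10, 9.41 and 8.69 CPM in DHX34 knockdown, 3.46, 3.16 and 2.62 in UPF1 knockdown and 10.8, 10.3 and 10.7 in SCR, where DHX34 knockdown was just below SCR (log2 fold change -1.60, SE 0.113, edgeR adjusted p = 1.9e-06). PRF1, perforin, measured 5.15, 5.34 and 4.42 CPM in DHX34 knockdown, 0.933, 1.01 and 1.38 in UPF1 knockdown and 1.69, 2.25 and 1.96 in SCR with DHX34 knockdown above SCR (log2 fold change -2.14, SE 0.166, edgeR adjusted p = 3.98e-06).

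Of the markers fixed for other cell types, CD8A and MS4A1 were at 0, and the sum of all 15 such markers, most of it KRT8, was 438 to 446 TPM in DHX34 knockdown, 336 to 339.8 in UPF1 knockdown and 403 to 408 in SCR. Its part in these results was not tested.

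Among the coding genes named by size, those for which DHX34 knockdown lay far above SCR and UPF1 knockdown below it included ARAP3, a GTPase regulator, with 28.7, 30.6 and 28.5 CPM in DHX34 knockdown, 6.6, 7.18 and 6.67 in UPF1 knockdown and 9.13, 8.31 and 7.57 in SCR (log2 fold change -2.09, SE 0.061, edgeR adjusted p = 4.07e-09), and APOE, apolipoprotein E, with 134, 136 and 112 CPM in DHX34 knockdown, 32.5, 32.1 and 27.8 in UPF1 knockdown and 46.8, 44.3 and 49.2 in SCR (log2 fold change -2.04, SE 0.079, edgeR adjusted p = 2.68e-08). INPP5D (SHIP1), a phosphatase of blood cells, had a log2 fold change of -1.87, the protease CTSS -1.90, the adaptor FYB1 -1.93, TRANK1 -2.01, SP6 -2.02 and LRRC4B -1.88. RYR1 (-1.87) and SH2D1B (-1.87) were lower in UPF1 knockdown than in SCR, while for INPP5D UPF1 knockdown overlapped SCR.

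In the other direction IGF1, insulin-like growth factor 1, measured 1.91, 2.68 and 2.09 CPM in DHX34 knockdown, 12, 12.2 and 12.3 in UPF1 knockdown and 10.4, 10.7 and 10.4 in SCR. UPF1 knockdown was just above SCR, and DHX34 knockdown was far below it (log2 fold change 2.47, SE 0.116, edgeR adjusted p = 1.01e-07). WWC3, a Hippo pathway scaffold, measured 4.38, 3.96 and 3.72 CPM in DHX34 knockdown, 18.2, 17.5 and 18.5 in UPF1 knockdown and 5.3, 4.83 and 4.68 in SCR (log2 fold change 2.17, SE 0.077, edgeR adjusted p = 1.68e-08), and the membrane chaperone DNAJC25 8.24, 8.64 and 9.96 CPM in DHX34 knockdown, 31.7, 31.5 and 31.2 in UPF1 knockdown and 9.08, 9.58 and 9.78 in SCR (log2 fold change 1.83, SE 0.07, edgeR adjusted p = 2.43e-08). DHX34 knockdown was just below SCR for WWC3 and overlapped it for DNAJC25. INHBE, an inhibin subunit gene (1.65), CCNB1IP1 (1.5), ZFAND2A (1.61), FAM24B (1.91), POMZP3 (1.69), COL15A1 (1.40) and ANKS3 (1.39) completed the coding genes named by size.

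Noncoding genes that were called were mostly higher in UPF1 knockdown. Of 3120 lncRNA genes 216 were higher and 36 lower (median 0.06), and of 718 pseudogenes of all kinds 78 were higher and 7 lower (median 0.23), beside 1426 higher and 1253 lower of 13311 protein-coding genes. Over all genes tested 9.89% were higher and 7.47% lower. LncRNA genes were called less often than that in both directions. Pseudogenes were higher about as often as all genes and lower less often. Transcribed unprocessed pseudogenes, copies that kept introns, had 38 higher and 2 lower of 137, with a median of 0.58. ASNSP1 (ENSG00000290398), a noncoding gene with the symbol of an ASNS pseudogene, measured 1.96, 1.88 and 1.78 CPM in DHX34 knockdown, 14.5, 15.3 and 13.7 in UPF1 knockdown and 2.36, 1.94 and 2.07 in SCR (log2 fold change 2.96, SE 0.085, edgeR adjusted p = 4.07e-09), and reads shared with ASNS make its level uncertain. ENSG00000291207, ENSG00000280325 and ENSG00000291124, 3 unnamed genes of chromosome 7, had log2 fold changes of 2.54, 2.53 and 2.32. The imprinted RNA H19 (-1.15) and the beta globin pseudogene HBBP1 (-1.01), with ENSG00000290652 beside it (-0.95), were lower. ENSG00000280800, which overlaps ribosomal RNA, was lower too (-0.93, called in 1 of the 6 fits without 1 library), and it moves with the ribosomal share given above, whose part in other results was not tested.

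Signalling genes were split. EGR1, an immediate early target of ERK, measured 39, 39.6 and 34 CPM in DHX34 knockdown, 23.5, 19.8 and 23 in UPF1 knockdown and 59.6, 47.7 and 45.3 in SCR, with both knockdowns below SCR and UPF1 knockdown the lower (log2 fold change -0.75, SE 0.075, edgeR adjusted p = 2.65e-05). Of 20 ERK feedback genes 5 were lower, including SPRY4 (-0.45) and JUNB (-0.40), and 2 higher, ETV5 (0.70) and JUN (0.31). Length-scaled counts called 3 of the 20 lower and 2 higher, and limma called 2 and 1. In JAK-STAT signalling, STAT6 measured 54.9, 55.4 and 55.9 CPM in DHX34 knockdown, 36.3, 34.6 and 33.9 in UPF1 knockdown and 39, 39.6 and 36.6 in SCR, above SCR in DHX34 knockdown and below it in UPF1 knockdown (log2 fold change -0.65, SE 0.039, edgeR adjusted p = 5.56e-07), and JAK2 measured 39, 37.3 and 39.9 CPM in DHX34 knockdown, 51.6, 52.3 and 51.3 in UPF1 knockdown and 37, 37.4 and 37.9 in SCR, above SCR in UPF1 knockdown, with DHX34 knockdown overlapping SCR (log2 fold change 0.43, SE 0.038, edgeR adjusted p = 1.16e-05). With length-scaled counts and with limma JAK2 was not called, while STAT6 was. SOCS2, a feedback inhibitor, was higher by 0.41. Of 21 interferon response genes 5 were lower and 0 higher by edgeR in the comparison, with IFI6 (-1.09, called in 2 of the 6 fits without 1 library) and IFI35 (-0.45) first, and length-scaled counts and limma called 0 lower. At an unadjusted edgeR p under 0.05, 0 of them were higher and 9 lower. Among 22 cytokines, growth factors and receptors 6 were higher, with IGF1 (2.47) and INHBE (1.65) first, and 5 lower, among them PDGFB (-2.30) and KIT (-1.33), around a median of -0.02. Length-scaled counts called 4 of the 22 higher and 3 lower, and limma called 3 and 3. LIF read 0.221, 0.272 and 0.444 CPM in DHX34 knockdown, 0, 0.0317 and 0.0576 in UPF1 knockdown and 0, 0.0143 and 0.0462 in SCR, and its call was kept in 0 of the 6 fits without 1 library.

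In metabolism, 6 of 13 fatty acid synthesis genes were lower and 2 higher. Length-scaled counts and limma each called 1 lower and 1 higher, and removing length and GC trends left 4 lower and 1 higher. FADS1, a desaturase, measured 1024, 1029.5 and 979 CPM in DHX34 knockdown, 741, 761 and 757 in UPF1 knockdown and 659, 632 and 652 in SCR, highest in DHX34 knockdown (log2 fold change -0.41, SE 0.033, edgeR adjusted p = 4.43e-06). FASN (-0.23) was called lower, but with length and GC trends removed its log2 fold change was 0.01. Cholesterol synthesis had 1 higher and 1 lower of 26, with 5 lower without DHX34 knockdown replicate 3 or by DESeq2, and 5 higher and 5 lower with length and GC trends removed. In glycolysis and hypoxia 6 of 28 were lower, with PKM at -0.27, and 2 were higher, VEGFA (0.40) among them. Length-scaled counts and limma each called 2 of the 28 lower and 0 higher. Of 37 lysosome and autophagy genes 6 were higher (16.2%), MAP1LC3B (0.54) among them, and 4 lower (10.8%), with CTSL (-0.53) first. SAT1 (0.67), which acetylates polyamines, was higher. Selenoproteins, whose UGA codon is read as selenocysteine, were divided: SELENOW (0.72), SELENOH (0.51) and TXNRD2 (0.44) were higher, and SELENOM (-0.83) and MSRB1 (-0.67) lower.

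With all 6 libraries, respiratory chain, ribosome and cell cycle genes did not separate the knockdowns as groups. Nuclear respiratory chain subunits had 1 higher and 1 lower of 50, and of the 13 genes of the mitochondrial genome edgeR, limma and length-scaled counts called 0, with 1 higher and 1 lower at an unadjusted edgeR p under 0.05. Cytosolic ribosomal proteins had 4 higher and 2 lower of 79. Without DHX34 knockdown replicate 3 the lower counts grew to 17 of 50 subunits and 24 of 79 ribosomal proteins, and 4 mitochondrial genes were higher. Lower calls over all genes grew from 1302 to 1917 in that fit. The reading of these groups therefore depends on that library. Ribosome biogenesis had 5 higher and 1 lower of 58 and translation factors 3 and 3 of 46.

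DNA replication genes had 6 higher (12.5%), ORC6 (0.43) first, and 2 lower (4.17%) of 48. For mitosis the numbers were 3 and 6 of 46, with ANLN, an actin scaffold of cytokinesis, at 43, 43.3 and 46.4 CPM in DHX34 knockdown, 66.1, 64.7 and 64.5 in UPF1 knockdown and 66.9, 72.1 and 77.3 in SCR (log2 fold change 0.57, SE 0.04, edgeR adjusted p = 1.75e-06). Replication-dependent histones, whose RNAs lack a poly(A) tail and whose decay needs UPF1, had 4 higher and 8 lower of 42, led by H2BC15 (0.74) and by H2AC20 (-1.10) with H1-2 (-0.50). The labels describe the libraries as enriched for poly(A) RNA, and H2AC20 was called in 0 of the 6 fits without 1 library. Without DHX34 knockdown replicate 3 the lower counts rose to 8 for the core spliceosome, 10 for ribosome biogenesis, 9 for translation factors, 7 for replication and 10 for mitosis. In that fit the lower calls over all genes rose too, from 1302 to 1917. Zinc finger genes of chromosome 19 had 14 higher (6.06%) and 3 lower (1.3%) of 231, around a median of 0.09. Both shares lay under the 9.89% and 7.47% of all genes tested. Without DHX34 knockdown replicate 3, 23 zinc finger genes were higher and 6 lower, beside 1948 higher and 1917 lower over all genes in that fit. PIKK kinases and their assembly factors, beside SMG1, had ZNHIT2 (-0.38) lower of 17.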

How the data were processed

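RNA of K562 cells, enriched for poly(A) per the labels, was sequenced in 9 libraries, and per the study's methods the authors ran salmon on Ensembl GRCh38 transcripts. The deposited tables give per transcript an expected count, a TPM and an effective length. The authors' sleuth and SUPPA2 tables hold their own comparisons with SCR and were not used. Of 203027 transcripts, 97.9% were joined to GENCODE 44, with 98.08% to 98.12% of the counts. Of those joined, 85.8% had the same length.

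Counts were summed per gene, rounded, and tested with edgeR 4.0.16 (quasi-likelihood test after TMM scaling; low genes were dropped by filterByExpr, minimum count 10) using the 6 knockdown libraries, with Benjamini-Hochberg adjustment and a threshold of 0.005. Transcripts were tested likewise. Each SE printed is the absolute log2 fold change divided by the square root of the F statistic of this test. It is not a separate estimate of precision. Shares of TPM (at least 0.05 of a gene of at least 5 TPM) were tested by limma 3.58.1 after an arcsine square root transform, with Simes p-values per gene. Single values were compared by exact permutation. Alternatives included DESeq2 1.42.0 and limma on log2(TPM + 0.5). The scripts were tested on simulated data. Named genes were called, had a mean of at least 5 CPM and no overlap: the 12 coding and 5 other genes at each end, and some items are not reported here. NMD factors, snoRNA hosts and up to 6 called members per direction of each of 43 lists were added, with the 10 NMD-annotated transcripts of at least 1 TPM at each end and the 10 largest share differences in genes of at least 10 TPM. Genes named beyond these were chosen after their values were seen. The members and lists were chosen with earlier results of these data known. Expected counts depend on how reads are divided between similar transcripts. The precision is that of 3 libraries per group.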

Additional observations from a re-analysis of the deposited data

How the results depend on the processing

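The 3026 genes called (1724 higher, 1302 lower) became 1671 (1019 and 652) with length-scaled counts, 1424 (997 and 427) with limma on TPM values and 5691 (3080 and 2611) at an adjusted p of up to 0.05; without a low-count filter 2013 were lower. Leaving out 1 library gave 1915 to 3865 called, 1124 to 1948 higher and 791 to 1917 lower. The 677 transcripts called became 4645 with DESeq2, 1038 with a minimum count of 50, 3747 at 0.05 and 57 to 345 without 1 library. The 234 genes with changed shares became 16 at 0.005 and 39 to 93 without 1 library. With the replicate block, 2320 genes, 0 transcripts and 0 genes by shares were called. Same-numbered libraries had correlations of -0.14, 0.11 and -0.14 in their deviations, so the numbers were not read as pairs, and these counts say nothing of weaker effects. The share of TPM in NMD-annotated transcripts differed in the same direction under every alternative run. FASN had a log2 fold change of 0.01 and BCR one of 0.05 with length and GC offsets, with and without the block, against -0.23 and -0.15. Of the median values of lists, 558 moved by less than the spread of libraries and 173 by more. The cause of these changes was not tested. Genes overlapping ribosomal RNA genes, left out in an alternative chosen after seeing the data, changed no count by more than 1.5 times.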
